A study of Mus musculus with 15 samples.

Results

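Akr1cl, Cpne9, Cabp1 and Sema4g are 4 of the 24030 genes in a bulk RNA sequencing table of mouse brown fat (brown adipose tissue), whose adipocytes oxidise fuel to release heat. They were picked by symbol because their levels at 29 °C were lower in mice with a brown-fat-specific deletion of DJ-1 (BDJ1KO, here KO) than in flox mice that keep the gene (here WT). Both genotypes were housed for 8 weeks either at room temperature, whose value in degrees the labels do not give, or at 29 °C, near the range in which a mouse needs little extra heat. There were 4 WT and 4 KO libraries at room temperature, and 4 WT and 3 KO libraries at 29 °C. The labels give neither age, sex nor the Cre driver, and the series title speaks of humanized mice without saying in the labels what was humanized. They list the replicates as separate samples but do not say that each was a separate animal, so a p-value here measures the spread between these samples, which may be technical.

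The 4 genes belong to unrelated protein families. Akr1cl encodes a member of the aldo-keto reductases, enzymes that use NADPH to reduce aldehydes and ketones, among them steroids and prostaglandins. Cpne9 encodes a copine, a soluble protein whose C2 domains bind membrane phospholipids when calcium rises. Cabp1 encodes an EF-hand calcium sensor related to calmodulin that is best known from brain and retina, where it tunes voltage-gated calcium channels and inositol trisphosphate receptors. Sema4g encodes a transmembrane semaphorin of class 4, a family whose members signal between neighbouring cells through plexin receptors. Brown fat is crowded with capillaries and sympathetic nerve endings, so RNA from the whole tissue mixes brown adipocytes with endothelial cells, neurites and immune cells. Fewer cells of one type and less RNA per cell cannot be told apart in such samples.

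The 300 bases around the annotated start of each gene, 250 before it and 50 from it on, are shown because the 4 genes were high and low in the same pair of warm groups. The sequences are RefSeq's for GRCm38.p6, read 5′ to 3′ on the gene's own strand, and all 4 symbols were matched. RefSeq lists a pair of starts for Cabp1. Capitals mark CCAAT boxes (CCAAT, or ATTGG on the other strand) and GC boxes (GGGCGG, or CCGCCC on the other strand).
Akr1cl, chr1:65032710-65033009, minus strand: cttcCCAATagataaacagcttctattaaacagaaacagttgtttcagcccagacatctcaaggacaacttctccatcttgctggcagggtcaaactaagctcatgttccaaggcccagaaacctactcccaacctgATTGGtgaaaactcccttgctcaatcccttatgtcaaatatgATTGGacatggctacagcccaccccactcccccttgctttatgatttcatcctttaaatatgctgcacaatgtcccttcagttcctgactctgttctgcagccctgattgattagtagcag
Cpne9, chr6:113282057-113282356, plus strand: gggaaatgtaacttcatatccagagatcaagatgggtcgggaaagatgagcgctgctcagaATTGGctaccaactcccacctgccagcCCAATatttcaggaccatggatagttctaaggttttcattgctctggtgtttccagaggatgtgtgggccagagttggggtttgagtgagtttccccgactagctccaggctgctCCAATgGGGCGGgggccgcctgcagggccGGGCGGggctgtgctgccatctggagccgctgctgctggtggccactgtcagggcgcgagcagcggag
Cabp1 start 1, chr5:115186072-115186371, minus strand: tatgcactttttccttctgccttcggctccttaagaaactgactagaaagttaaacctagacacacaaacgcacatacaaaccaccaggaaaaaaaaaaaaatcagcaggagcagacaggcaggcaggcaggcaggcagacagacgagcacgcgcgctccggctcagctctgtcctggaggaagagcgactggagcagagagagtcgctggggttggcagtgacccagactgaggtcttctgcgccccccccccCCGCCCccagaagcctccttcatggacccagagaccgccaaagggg
Cabp1 start 2, chr5:115194332-115194631, minus strand: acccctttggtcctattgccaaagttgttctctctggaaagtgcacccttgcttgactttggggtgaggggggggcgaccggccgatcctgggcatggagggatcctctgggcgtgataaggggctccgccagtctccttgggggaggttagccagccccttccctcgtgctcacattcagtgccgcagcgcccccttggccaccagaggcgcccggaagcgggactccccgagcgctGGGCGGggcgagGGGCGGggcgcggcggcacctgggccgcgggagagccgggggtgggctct
Sema4g, chr19:44989094-44989393, plus strand: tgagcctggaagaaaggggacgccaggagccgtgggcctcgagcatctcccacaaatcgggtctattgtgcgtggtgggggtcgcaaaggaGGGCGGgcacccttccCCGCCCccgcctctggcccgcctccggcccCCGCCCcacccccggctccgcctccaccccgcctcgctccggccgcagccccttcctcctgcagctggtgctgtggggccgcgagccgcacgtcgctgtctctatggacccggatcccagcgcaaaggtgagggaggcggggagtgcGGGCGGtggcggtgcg

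The windows differed in base composition. The Akr1cl window held 45.0% G and C and 0 CpG dinucleotides. Of the 32851 mouse promoters of the same length in the RefSeq table, 5.43% held 0 CpG. The other windows were richer: Cpne9 had 58.7% G and C and 11 CpG, the Cabp1 windows 57.0% with 12 CpG and 69.3% with 22 CpG, and Sema4g 73.3% with 30 CpG. The median promoter had 52.7% and 7 CpG. Akr1cl and Cpne9 each carried 3 CCAAT boxes, and neither Cabp1 window nor that of Sema4g carried one. CCAAT or its reverse complement occurs in 37.4% of all these promoters. In Akr1cl the boxes began at -246, -113 and -71 and in Cpne9 at -189, -162 and -47, counting the annotated start as 0. GC boxes, present in 35.7% of promoters, numbered 0 in Akr1cl, 2 in Cpne9 (-41 and -18), 1 and 2 in the Cabp1 windows (4, and -12 and 0) and 4 in Sema4g (-159, -143, -113 and 34). On either strand, TATAAA (in 13.6% of promoters), CACGTG (7.15%), TGACGTCA (1.79%) and GAANNTTC (7.86%) were found in none of the 5 windows. A match describes the letters only.

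The genes lie on 4 chromosomes. In the GENCODE M21 annotation of GRCm38, Akr1cl (ENSMUSG00000025955) spans chr1:65012689-65032759 on the minus strand with 10 exons. Cpne9 (ENSMUSG00000030270) spans chr6:113282307-113305627 on the plus strand with 21 exons, Cabp1 (ENSMUSG00000029544) chr5:115168689-115194381 on the minus strand with 7 exons in its longest transcript, and Sema4g (ENSMUSG00000025207) chr19:44989101-45003397 on the plus strand with 15 exons. The GENCODE span of Sema4g begins inside the RefSeq window printed above (44989094-44989393), before the RefSeq start. By GENCODE, most bases before that start, GC boxes among them, therefore lie within the gene. A pseudogene on the opposite strand, Gm8550, shares 494 exon bases with Akr1cl, and the sources used here do not state whether reads were counted by strand. Akr1cl also shares 7 of its 1758 exon windows of 50 bases (0.398%) with its relative Akr1c18, so few of its reads could be split between those genes. No such window of Cpne9, Cabp1 or Sema4g occurs in another gene.

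Park7, which encodes DJ-1, checks the genotype labels. Levels are in CPM, counts relative to the library total after scaling between libraries, as mean ± SD. At room temperature Park7 averaged 110 ± 1.65 CPM in WT (n = 4) against 28.2 ± 4.03 CPM in KO (n = 4). At 29 °C the averages were 118 ± 11.0 CPM (n = 4) against 31.7 ± 5.46 CPM (n = 3), with no overlap between genotypes at either temperature (exact permutation test, two-sided, p = 0.0286 in both, the smallest possible). All 13 brown adipocyte markers examined were detected in each group. Their summed level was 12861 to 15066 CPM in WT and 8733 to 15291 CPM in KO at room temperature, and 3502 to 4678 CPM in WT and 10000 to 12881 CPM in KO at 29 °C. Total estimated counts were 23977448 to 38800967 per library. At 29 °C, WT replicate 2 and KO replicates 2 and 3 carried skeletal muscle transcripts (604 to 1991 CPM over 14 markers, against at most 30.0 CPM in every other library). KO replicates 2 and 4 at room temperature stood apart in earlier results of these data. The values of the 4 genes between genotypes are given with and without these libraries. For some lists of other genes, the median log2 fold change at 29 °C is given without the libraries with muscle transcripts as well.

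The 4 genes were proposed as induced by warmth and blunted in the knockouts, so their rise in warm WT was part of the choice. In KO that description covered 3 different patterns. In WT all 4 were higher at 29 °C than at room temperature without overlap between libraries, as were 32.2% of the 15083 genes tested. In KO, Akr1cl and Cpne9 were still higher at 29 °C than at room temperature without overlap (24.7% of genes), at a lower level than in warm WT. Cabp1 stood in warm KO where it stood at room temperature, and Sema4g stood below its room-temperature level without overlap (23.4% of genes). In KO against WT at 29 °C all 4 were lower without overlap, as were 19.6% of genes. The rule that chose the 4 used that contrast, and the libraries at 29 °C enter all of these comparisons, so they are descriptions without a test and nothing is read from the counts.

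**Figure D1:**
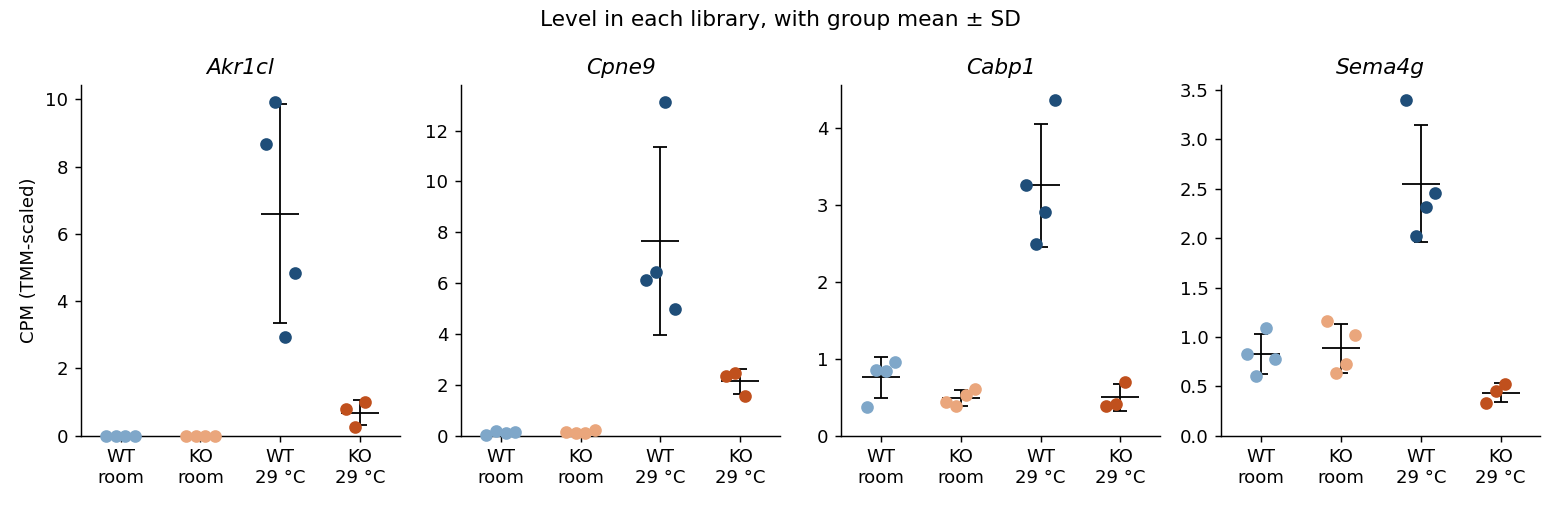
Level of each gene in each of the 15 libraries (dots; CPM on TMM-scaled library sizes, separate vertical axis per gene from 0) in WT and KO at room temperature and at 29 °C, with group mean (long bar) ± SD (whiskers). All 4 WT libraries at 29 °C sit above all other libraries of the same gene, while the 3 KO libraries at 29 °C sit above room temperature for Akr1cl and Cpne9, among it for Cabp1 and below it for Sema4g.

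Akr1cl, the reductase, had 0 counts in all 8 libraries at room temperature. A count of 0 over a group allows up to 0.0318 CPM in WT and 0.0311 CPM in KO (3 counts over the group, counting error only). All 7 libraries at 29 °C had Akr1cl counts. The 4 WT libraries there measured 8.67, 9.93, 2.94 and 4.84 CPM, from 250, 299, 85 and 120 counts. The 3 KO libraries at 29 °C measured 0.784, 0.263 and 1.01 CPM, from 33, 7 and 29 counts. The lowest warm WT library, replicate 3, exceeded the highest warm KO library. The means at 29 °C were 6.60 ± 3.26 CPM in WT (SD, n = 4) and 0.684 ± 0.381 CPM in KO (SD, n = 3). That is a log2 fold change of -3.24 ± 0.56 (SE), or 9.48-fold lower in KO. It was the 11th most negative log2 fold change among the 15083 genes tested. Without the 3 libraries with muscle transcripts, which leaves 1 warm KO library at 0.784 CPM, the log2 fold change was -2.87. Against the limit that 0 counts allow, the warm level was at least 208-fold higher than room temperature in WT and at least 22.0-fold higher in KO.

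Cpne9, the copine, was close to absent at room temperature. The 4 WT libraries there held 1, 4, 2 and 3 counts, or 0.0414, 0.172, 0.0840 and 0.130 CPM. The 4 KO libraries held 3, 2, 3 and 5 counts, or 0.129, 0.0843, 0.121 and 0.203 CPM. At this depth the genotypes overlapped fully: the group sums of 10 and 13 counts have exact 95% Poisson intervals of 0.0508 to 0.195 CPM and 0.0718 to 0.231 CPM, which cover counting error only. At 29 °C the WT libraries measured 6.14, 6.44, 13.1 and 4.96 CPM. The KO libraries at 29 °C measured 2.35, 2.48 and 1.56 CPM. Replicate 3 of WT, the highest, did not decide the order, since the other 3 also lay above all KO libraries. The means were 7.67 ± 3.70 CPM (SD, n = 4) and 2.13 ± 0.499 CPM (SD, n = 3), a log2 fold change of -1.85 ± 0.32 (SE) or 3.59-fold lower in KO, the 144th most negative. The value was -1.85 without the libraries with muscle transcripts. Cpne9 had a large warm-housing difference in both genotypes: log2 6.12 ± 0.41 in WT, or 69.4-fold, and 3.94 ± 0.42 in KO, or 15.3-fold.

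Cabp1, the calcium sensor, was low but present in all libraries. At room temperature WT measured 0.372, 0.859, 0.840 and 0.952 CPM and KO 0.431, 0.379, 0.524 and 0.610 CPM. WT replicate 1 was the lowest of all 8, and the other 3 WT libraries lay above all 4 KO libraries. At 29 °C WT measured 3.26, 2.49, 2.90 and 4.36 CPM. KO at 29 °C measured 0.380, 0.413 and 0.693 CPM, within the span of the room-temperature libraries. The means at 29 °C were 3.25 ± 0.801 CPM (SD, n = 4) and 0.496 ± 0.172 CPM (SD, n = 3), a log2 fold change of -2.71 ± 0.33 (SE), or 6.56-fold lower in KO, the 28th most negative. Without the libraries with muscle transcripts it was -3.26. Warm housing went with a log2 difference of 2.10 ± 0.29 in WT, or 4.28-fold, and of 0.01 ± 0.35 in KO. The sign of the KO value was not stable: it ran from -0.30 to 0.19 as single libraries were left out and was -0.43 without those with muscle transcripts.

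Sema4g, the semaphorin, was present in all 15 libraries. WT at room temperature measured 0.827, 0.601, 1.09 and 0.779 CPM and KO 1.16, 0.632, 0.725 and 1.02 CPM. The genotypes were interleaved. At 29 °C WT measured 3.40, 2.03, 2.32 and 2.46 CPM, and KO measured 0.333, 0.451 and 0.520 CPM. The highest warm KO library lay below the lowest library of every other group. The means at 29 °C were 2.55 ± 0.594 CPM (SD, n = 4) and 0.435 ± 0.0946 CPM (SD, n = 3), a log2 fold change of -2.56 ± 0.30 (SE), or 5.89-fold lower in KO, the 33rd most negative. Without the libraries with muscle transcripts it was -3.09. Sema4g was 3.08-fold higher at 29 °C than at room temperature in WT (log2 1.62 ± 0.26) and 2.05-fold lower in KO (log2 -1.03 ± 0.31, or -1.47 without the libraries with muscle transcripts). The separation of warm from room-temperature KO depended on the scaling. On plain column totals, the KO libraries measured 0.361 to 0.615 CPM at 29 °C and 0.560 to 1.01 CPM at room temperature, which overlap, and the log2 fold change was -0.72.

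**Figure D2:**
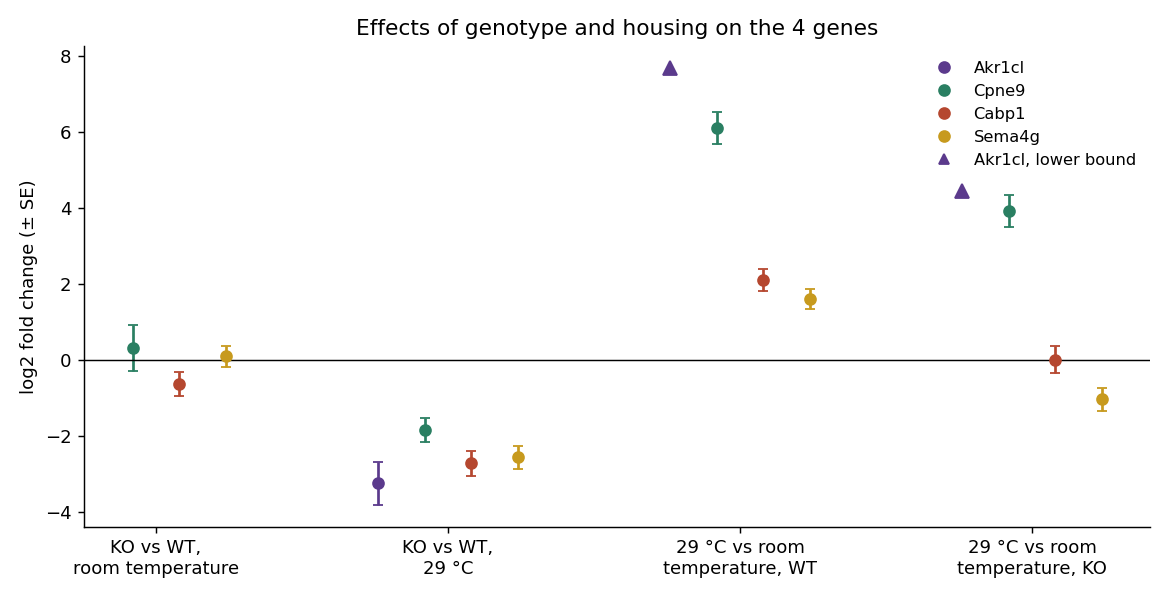
Log2 fold changes (vertical axis) of the 4 genes in 4 comparisons (horizontal axis), from the edgeR fit, with SE as whiskers; triangles are lower bounds for Akr1cl, which had 0 counts at room temperature. The values for KO against WT lie between -0.63 and 0.33 at room temperature for the 3 genes with counts there and between -3.24 and -1.85 at 29 °C for all 4, and the 4 genes spread from -1.03 to at least 4.46 in the housing comparison in KO.

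The only comparison whose groups hold none of the libraries by which the genes were chosen is KO against WT at room temperature. Its edgeR spread was still estimated over all 15 libraries, warm ones included, while the permutation test used room-temperature libraries only. Cpne9, with few counts at room temperature, passed the count filter through the warm libraries. None of the 3 genes tested there changed with genotype in edgeR's quasi-likelihood test, where 0.239% of all genes did. None passed an unadjusted p under 0.05 there either, nor the adjusted test in DESeq2 or limma-voom. Akr1cl, at 0 counts in both groups, has no test and no fold change. For Cpne9 the means were 0.107 ± 0.0564 CPM in WT and 0.134 ± 0.0498 CPM in KO (SD, n = 4 each). The log2 fold change was 0.33 ± 0.61 (SE), with a 95% interval of -0.95 to 1.62 (edgeR adjusted p = 0.890; exact permutation test of the CPM, two-sided, p = 0.543). Differences within that interval were not detectable from so few counts.

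Cabp1 averaged 0.756 ± 0.260 CPM in WT and 0.486 ± 0.102 CPM in KO at room temperature (SD, n = 4 each). Its log2 fold change of -0.63 ± 0.32 (SE) had a 95% interval of -1.31 to 0.06 (edgeR adjusted p = 0.492; exact permutation p = 0.143, two-sided). Sema4g averaged 0.825 ± 0.203 CPM in WT and 0.884 ± 0.248 CPM in KO (SD, n = 4 each). Its log2 fold change of 0.10 ± 0.27 (SE) had a 95% interval of -0.48 to 0.68 (edgeR adjusted p = 0.934; exact permutation p = 0.743, two-sided). The sign for Sema4g turned when WT replicate 2 (-0.026) or KO replicate 1 (-0.059) was left out. With KO replicates 2 and 4 left out, the values were 0.23 for Cpne9, -0.65 for Cabp1 and 0.19 for Sema4g. The genotypes overlapped at room temperature in all 4 genes, whereas KO lay wholly above WT in 3.94% and wholly below it in 4.28% of genes tested.

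The interaction is the KO minus WT log2 difference at 29 °C less that at room temperature. It passed the test in 28.3% of all genes and was -2.18 ± 0.70 for Cpne9, -2.09 ± 0.46 for Cabp1 and -2.66 ± 0.41 for Sema4g (log2 ± SE). Nothing is read from these, since the contrast that chose the genes is part of them. In CPM, the warm-housing difference in KO amounted to 10.4% of that in WT for Akr1cl, 26.4% for Cpne9 and 0.388% for Cabp1. For Sema4g it had the opposite sign, at -26.1%. The order of group levels was WT at 29 °C, KO at 29 °C and then room temperature for Akr1cl and Cpne9, with the room-temperature genotypes overlapping. For Cabp1 only the step from WT at 29 °C to the other groups exceeded the spread of the libraries. For Sema4g the order was WT at 29 °C, then both room-temperature groups, then KO at 29 °C. Per kilobase of exon, the warm WT levels were 3.75 ± 1.85 for Akr1cl, 2.76 ± 1.33 for Cpne9, 1.55 ± 0.382 for Cabp1 and 0.561 ± 0.131 for Sema4g (CPM per kilobase, SD, n = 4).

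Among themselves the 4 genes correlated most in 2 pairs, which restate their group levels. Log2 CPM of Akr1cl and Cpne9 had a Pearson r of 0.953, and of Cabp1 and Sema4g 0.860. Across the pairs r was 0.759 for Akr1cl and Cabp1, 0.695 for Cpne9 and Cabp1, 0.564 for Akr1cl and Sema4g, and 0.465 for Cpne9 and Sema4g. These are descriptions over the same libraries and the same 4 groups. Akr1cl had no counts at room temperature, so its log2 CPM there is a constant set by the prior count. Its r values, here and in the next paragraph, depend on that constant. The first pair sits higher in warm KO than at room temperature and the second pair does not.

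The genes most like each member, by Pearson r of log2 CPM over 15 libraries among 11807 genes of at least 1 CPM, differed between the 4. For Akr1cl they were Tnfaip8l1 (r = 0.990), Npdc1, Stard9, Ptp4a3 and Pgm5 (0.986). Tnfaip8l1 averaged 0.772 ± 0.115 CPM in room-temperature WT, 0.764 ± 0.163 CPM in room-temperature KO, and 8.59 ± 1.22 and 2.92 ± 0.885 CPM in WT and KO at 29 °C (SD; n = 4, 4, 4 and 3). For Cpne9 they were the ribosomal protein genes Rps24 (r = 0.983), Rps20 and Rpl26, the small nucleolar RNA host gene Snhg12, and Pck2 (0.977), which encodes mitochondrial phosphoenolpyruvate carboxykinase. All 5 differed less between groups than Cpne9 did: Rps24 went from 212 ± 11.3 CPM in WT at room temperature to 409 ± 29.8 CPM in WT and 325 ± 34.0 CPM in KO at 29 °C.

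For Cabp1 the 5 were Cdk2 (r = 0.969), the angiopoietin receptor gene Tek (0.967), Higd1b, Rnf215 and Adgrl4 (0.958), an adhesion receptor of endothelium. Tek averaged 45.7 ± 6.59 and 39.1 ± 4.87 CPM in WT and KO at room temperature, and 109 ± 10.4 and 43.6 ± 5.77 CPM at 29 °C. For Sema4g they were Fignl2 (r = 0.937), Cdk10, the synaptotagmin gene Syt7, Rgl2 and the chloride transporter gene Clcn6 (0.910). Each of these 4 sets was chosen for its likeness, and r is high for any gene that follows the same 4 groups. By Spearman correlation, 1, 0, 2 and 1 of the 5 genes remained for Akr1cl, Cpne9, Cabp1 and Sema4g.

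**Figure D3:**
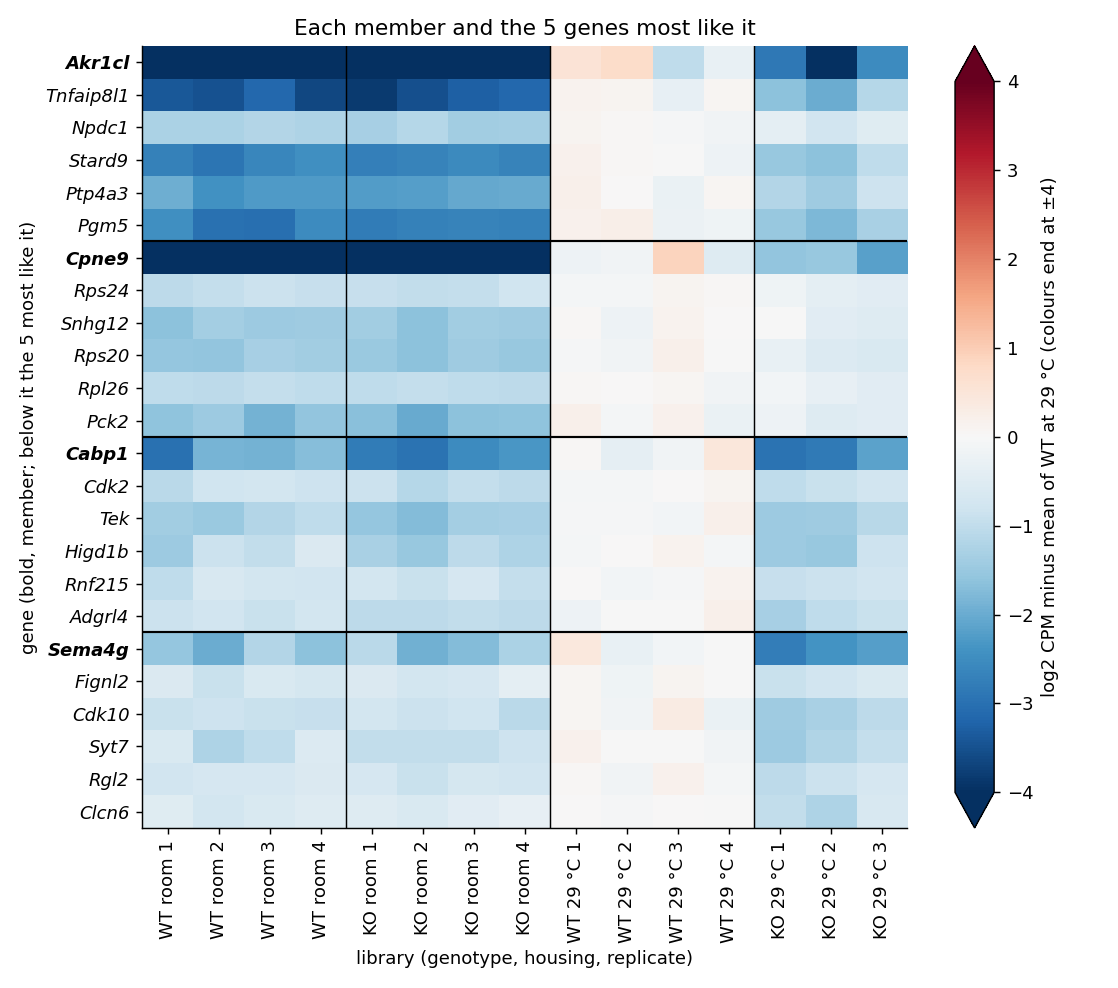
Log2 CPM of each of the 4 genes (bold) and of the 5 genes most like it (rows below it) in the 15 libraries (columns), as the difference from the mean of WT at 29 °C; blue is lower, red higher, and colours end at 4 in either direction. Akr1cl and Cpne9 reach the end of the scale in all room-temperature libraries, and the 3 KO columns at 29 °C are as blue as room temperature for Cabp1 and bluer for Sema4g.

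Markers of several cell types differed between the same groups, some with the 4 genes and some against them. Their counts stand beside the shares over all genes tested. Of all genes, 35.9% rose and 32.8% fell in warm WT. In warm KO against warm WT, 24.7% were higher and 20.0% lower. At 29 °C in KO, 3664 of 15083 rose. All 8 endothelial markers, Tek among them, rose at 29 °C in WT, all 8 were lower in KO than WT at 29 °C, and 4 of 8 rose at 29 °C in KO (edgeR). Their summed level was 484 to 615 CPM in WT and 409 to 522 CPM in KO at room temperature, 1211 to 1602 CPM in WT at 29 °C and 549 to 697 CPM in KO at 29 °C. Warm WT had the highest sum, as it had the highest level of the 4 genes. The sum in warm KO lay above that in room-temperature KO and overlapped that in room-temperature WT. Single markers need not follow the sum: Tek measured 39.1 ± 4.87 CPM in KO at room temperature and 43.6 ± 5.77 CPM in KO at 29 °C (log2 0.16). Without the libraries with muscle transcripts, which leaves 1 warm KO library, the markers' median log2 fold change was -1.40 in KO against WT at 29 °C. Between temperatures in KO the median was then 0.12.

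Neuronal markers, examined because Cabp1 is known from neurons, summed to 1.80 to 2.44 and 2.23 to 2.93 CPM in WT and KO at room temperature, and to 4.72 to 5.45 and 2.45 to 3.88 CPM at 29 °C. Only 3 of those 12 passed the filter. Of these, 2 rose in warm WT and 2 were lower in warm KO than warm WT. The count lower in warm KO did not hold without the libraries with muscle transcripts, which leaves 1 warm KO library. Th and Dbh, the noradrenaline enzymes of sympathetic nerves, were at 0 at room temperature and in warm KO. So was Nefm, while Nefl was at 0 only at room temperature and Snap25 only in warm KO. These genes lie near the limit of detection, and nothing is read from their zeros.

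Other markers were higher in warm KO than in warm WT, the reverse of the 4 genes (24.7% of all genes were higher there and 20.0% lower). Of 8 lymphocyte markers 7 were higher and 0 lower (summed 19.8 to 27.5 CPM against 4.70 to 7.15 CPM). Of 8 macrophage markers 3 were higher and 0 lower (337 to 490 CPM against 193 to 299 CPM). Schwann cell markers gave 3 and 0 of 8, and fibroblast and progenitor markers 3 and 1 of 8. Brown adipocyte markers gave 7 and 1 of 13, and white adipocyte markers 1 and 1 of 7. Without the libraries with muscle transcripts, the median log2 fold changes were 2.21, 0.56, 0.06, 0.30, 1.09 and 0.64 for these lists in order. The part of any of these cell types in the levels of the 4 genes was not tested.

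Akr1cl's relatives moved in both directions. Of 12 aldo-keto reductase genes tested, 3 rose and 6 fell at 29 °C in WT (edgeR, adjusted p under 0.05; 35.9% of all genes rose and 32.8% fell). At 29 °C, 3 were higher and 2 lower in KO than WT (24.7% and 20.0% of all genes). The median log2 fold change there was -0.04, or -0.11 without the libraries with muscle transcripts. The 2 that were lower are Akr1c14 and Akr1c18, both hydroxysteroid dehydrogenases. Akr1c14 measured 1.06 ± 0.216 CPM in WT at room temperature, 5.18 ± 1.08 CPM in WT at 29 °C and 1.78 ± 0.416 CPM in KO at 29 °C (log2 KO against WT at 29 °C -1.54 ± 0.27, adjusted p = 0.00029). Akr1c18, which inactivates progesterone, measured 0.0216 ± 0.0433, 0.701 ± 0.167 and 0.0472 ± 0.0527 CPM in the same groups (log2 -3.91 ± 0.75, adjusted p = 0.000585). Akr1c18 was near 0 in every group but warm WT and passed the count filter only through that group. A lower level in warm KO is then largely built in, and nothing is read from its call. Akr1c13, at 3.13 to 3.53 CPM in the group means, was not called in any comparison. The aldose reductase gene Akr1b3 went the other way from Akr1cl, with a fall in warm WT (-0.58 ± 0.09) and a higher level in warm KO (1.04 ± 0.10).

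Among 26 steroid, prostaglandin and carbonyl enzyme genes tested, 10 rose and 12 fell in warm WT, and 7 were higher and 5 lower in warm KO than in warm WT. Beside these counts, 35.9% of all genes rose and 32.8% fell in warm WT, and 24.7% were higher and 20.0% lower in warm KO. The list's median log2 fold change in KO against WT at 29 °C was 0.10, or 0.11 without the libraries with muscle transcripts. Ptgs1, a cyclooxygenase that starts prostaglandin synthesis, had the direction of Akr1cl, at 2.18 ± 0.429 CPM in WT at room temperature and 9.11 ± 0.564 and 4.10 ± 0.559 CPM in WT and KO at 29 °C. Hsd11b1, which regenerates active glucocorticoid, had the opposite one, at 162 ± 13.1 CPM in WT at room temperature and 10.6 ± 4.32 and 56.8 ± 19.5 CPM in WT and KO at 29 °C.

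Among the copines, Cpne7 had a course like that of Cpne9. It measured 0.213 ± 0.116 CPM in WT at room temperature, 4.26 ± 1.70 CPM in WT at 29 °C and 1.55 ± 0.320 CPM in KO at 29 °C. Cpne7 rose in both genotypes (log2 4.29 ± 0.43 in WT, 2.94 ± 0.46 in KO) and was lower in warm KO than warm WT (-1.46 ± 0.38, adjusted p = 0.00529), with an interaction that missed the threshold (adjusted p = 0.149). Cpne2 and Cpne8 also rose in warm WT (1.38 ± 0.18 and 1.23 ± 0.18) and were lower in warm KO (-0.74 ± 0.19 and -0.88 ± 0.19). Without the libraries with muscle transcripts Cpne2 missed the threshold there (-0.79, edgeR adjusted p = 0.0625). The abundant Cpne1 and Cpne3 fell in warm WT (-0.66 ± 0.08 and -0.53 ± 0.09). Over the 19 copine and other C2-domain genes tested, 9 rose and 6 fell in warm WT, and 2 were higher and 6 lower in warm KO. The shares over all genes were 35.9% and 32.8% in warm WT, and 24.7% and 20.0% in warm KO. The list's median log2 fold change in KO against WT at 29 °C was -0.14, or -0.18 without the libraries with muscle transcripts. Syt12, a synaptotagmin gene, had the reverse pattern to Cpne9, at 24.0 ± 3.57 CPM in WT at room temperature, 2.52 ± 0.969 CPM in WT at 29 °C and 39.7 ± 20.9 CPM in KO at 29 °C.

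**Figure D4:**
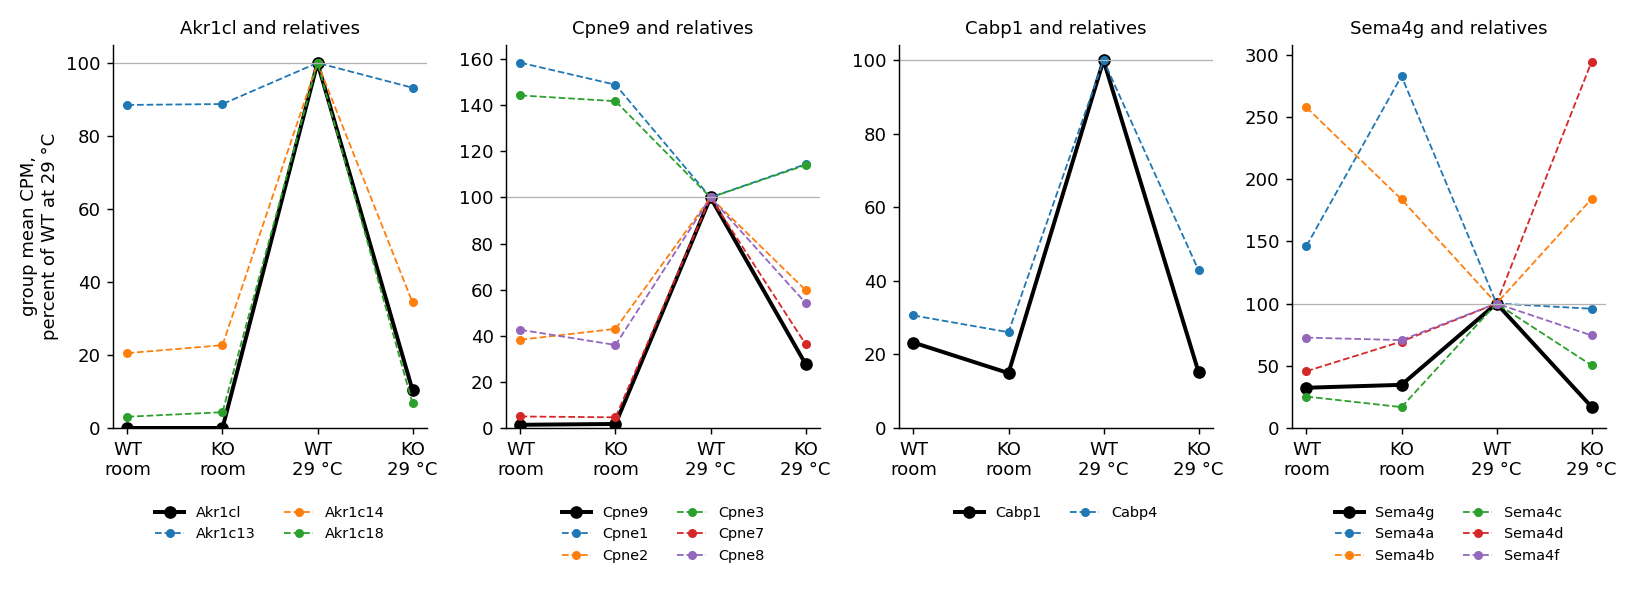
Group mean CPM of each gene (black) and of its tested relatives (dashed), as percent of the mean of WT at 29 °C (vertical axis; the grey line is that mean), in WT and KO at room temperature and 29 °C. Akr1c14, Akr1c18, Cpne7, Cabp4 and Sema4c peak in WT at 29 °C as the black lines do, whereas Cpne1, Cpne3, Sema4a and Sema4b do not.

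Of Cabp1's own family only Cabp4 passed the filter, and Cabp2, Cabp5 and Cabp7 were at or near 0. Cabp4 measured 0.242 ± 0.146 CPM in WT at room temperature, and 0.791 ± 0.439 and 0.340 ± 0.136 CPM in WT and KO at 29 °C. Its log2 fold change in KO against WT at 29 °C was -1.20 ± 0.47 (edgeR adjusted p = 0.0482), or -1.29 without the libraries with muscle transcripts. Cabp4 was low in every group and highest in warm WT, through which it may have passed the filter, so nothing is read from its call. In the wider list of calcium sensors and channel partners, 11 of 19 genes rose and 4 fell in warm WT (35.9% and 32.8% of all genes). The median log2 fold change was 1.15 beside 0.06 over all genes. In warm KO against warm WT, 1 was higher and 6 were lower, with a median of -0.21 beside 0.04. The median was -0.34 beside -0.04 without the libraries with muscle transcripts. The shares over all genes were 24.7% higher and 20.0% lower. Channels and receptors that Cabp1 protein is known to tune are described next for KO against WT at 29 °C. Their sizes of change are not set against that of Cabp1, which was picked in that contrast. Cacna1c, an L-type calcium channel, was at -0.88 ± 0.18 (log2 ± SE, called). Itpr3, an inositol trisphosphate receptor, was at -0.47 ± 0.14 (called, or -0.81 without the libraries with muscle transcripts). The more abundant receptor gene Itpr1 fell in warm WT (-0.72 ± 0.08), where Cacna1c and Itpr3 rose. Itpr1 was not called in KO against WT at 29 °C (0.09 ± 0.09). Cacna1a, a neuronal calcium channel, was higher in warm KO (1.50 ± 0.23). Of the sensors, Ncald and Hpcal1 were lower in warm KO (-1.12 ± 0.25 and -0.61 ± 0.15).

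Most semaphorin and receptor genes rose with warm housing in WT. Of 27 tested, 18 rose and 2 fell in warm WT (35.9% and 32.8% of all genes), with a median log2 fold change of 1.13 beside 0.06 over all genes. In KO against WT at 29 °C, 3 were higher and 12 lower, with a median of -0.60 beside 0.04. The shares over all genes there were 24.7% higher and 20.0% lower. The median was -1.04 beside -0.04 without the libraries with muscle transcripts. Among class 4 ligands, Sema4c, a ligand of plexin-B2, measured 13.4 ± 2.57 CPM in WT at room temperature and 52.9 ± 7.72 and 26.7 ± 2.62 CPM in WT and KO at 29 °C. It rose in warm KO as well (log2 1.59 ± 0.15), where Sema4g was lower. Sema4d, a ligand of plexin-B1, was higher in warm KO than in warm WT (1.55 ± 0.30), as was Sema4b (0.88 ± 0.24), which fell in warm WT (-1.36 ± 0.23). Sema4a and Sema4f did not pass the test in KO against WT at 29 °C (log2 -0.06 ± 0.33 and -0.43 ± 0.44). Other ligands lower in warm KO were Sema3g (-1.22 ± 0.18) and Sema6a (-1.18 ± 0.15). The receptor gene Plxnd1, active in vessel growth, measured 56.9 ± 2.65 CPM in WT at room temperature and 204 ± 37.7 and 78.7 ± 8.27 CPM in WT and KO at 29 °C (log2 -1.37 ± 0.16).

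At room temperature 0 of the 103 related genes of these 5 lists was called between genotypes in edgeR, where 0.239% of all genes were. Of the related genes, 11 had an unadjusted p under 0.05, 4 were called by DESeq2 and 0 by limma-voom. At 29 °C, 16 were higher and 31 lower in KO. Of all genes, 24.7% were higher and 20.0% lower in KO at 29 °C. Plain column totals in place of TMM moved the median of all genes in the housing comparisons from 0.06 to 0.41 in WT and from 0.04 to 0.35 in KO, so counts of rising genes between housing temperatures are relative to the scaling. All-gene calls split into 5421 higher and 4954 lower in warm WT under TMM and 7517 and 2981 under plain totals, and into 3664 and 3276 in warm KO under TMM and 6469 and 1244 under plain totals.

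The neighbours of the 4 genes were described as well. They are the 2 nearest genes on each side whose symbols these count data list, in RefSeq positions on GRCm38.p6. Genes without a listed symbol were skipped, and the widest gap was 275 kilobases (Fzd5 and Akr1cl). Of these neighbours, 11 of 16 passed the filter. None of the 11 rose in warm WT in edgeR, and 4 fell (35.9% and 32.8% of all genes). Mtmr14 and Brpf1, which flank Cpne9 at 0.891 and 1.29 kilobases, differed by 0.04 ± 0.15 and 0.07 ± 0.08 (log2 ± SE) between housing temperatures in WT, beside 6.12 for Cpne9. Mrpl43, a mitochondrial ribosomal protein gene 1.62 kilobases past Sema4g, fell in warm WT (-0.90 ± 0.09) and was higher in warm KO than warm WT (0.38 ± 0.09). Idh1, Mlec and Fzd5 were also higher in warm KO (0.92 ± 0.12, 0.34 ± 0.13 and 0.57 ± 0.15), and only Lzts2 was lower (-0.33 ± 0.11). Of all genes, 24.7% were higher there and 20.0% lower.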

How the data were processed

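Brown fat RNA was sequenced in pairs of 150 bp reads on a BGIseq500, per the labels' protocols. Per the submitters' processing notes, STAR 2.7.10a, RSEM 1.2.28, mm10 and DESeq2 (given as 1.3.40) were used. The authors deposited RSEM expected counts per gene symbol, of which 7.26% have decimals. The values were rounded. The annotation release and strand setting are not given in the sources used here, and 24 symbols had become dates and are not named. All 15 columns were matched to samples by name.

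Genes passed edgeR's filterByExpr by group (minimum count 10), which left 15083. One model with 4 groups, TMM scaling and 11 residual degrees of freedom was fitted in R 4.3.3 with edgeR 4.0.16 (quasi-likelihood, robust) and limma 3.58.1, tested first on simulated data. P-values were adjusted by Benjamini-Hochberg over all genes tested, and a call is an adjusted p under 0.05. The exact permutation tests ran over 70 arrangements of 4 against 4 libraries, or 35 of 4 against 3. Likeness used log2 CPM with a prior count of 1. Library totals span 23977448 to 38800967.

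The members, lists and tests were chosen with earlier results of these data known. Named were the members, Park7, the 5 genes most like each member, and up to 4 genes per related list with the smallest p in each of KO against WT at 29 °C and 29 °C against room temperature in WT. The nearest 2 genes on either side, among symbols in the count data, were named too. All tested Akr1c, copine, CaBP and class 4 semaphorin genes were added whatever their values. Promoters came from RefSeq (GRCm38.p6) and exon lengths from GENCODE M21. The closing section gives the effect of alternatives: RLE size factors, no filter, a filter of 1 CPM in 4 libraries, DESeq2 1.42.0, limma-voom, only the libraries compared, a replicate block, an adjusted p under 0.01, mitochondrially encoded genes removed, and libraries left out. Plain column totals were added after seeing the data.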

Additional observations from a re-analysis of the deposited data

Results flagged for a closer look

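The interaction is the KO minus WT log2 fold change at 29 °C less that at room temperature. It passed the test in edgeR (adjusted p under 0.05) in 32 of the 103 related genes tested, 12 positive and 20 negative, beside 28.3% of all 15083 genes. Of the 27 related genes that the text names, 18 passed. They were named for a small p in KO against WT at 29 °C or in 29 °C against room temperature in WT, which are parts of the interaction, so that share is not read against the one for all genes. Their values are a description.

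In 11 of the 18 it was negative. Among the enzymes it was -1.69 for Akr1c14, -0.65 for Hsd17b11 and -1.26 for Ptgs1. Among C2-domain genes it was -1.08 for Syt7, -1.93 for Doc2g and -0.91 for Cpne2. Among calcium sensors it was -0.98 for Ncald and -0.61 for Hpcal1, and among semaphorin ligands and receptors -1.19 for Plxnd1, -0.95 for Sema6a and -0.97 for Sema3g.

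In the other 7 it was positive. The reductases Akr1b3 and Akr1b10 had 0.997 and 1.40, and the steroid and fatty acid enzymes Hsd17b12, Hsd17b4 and Hsd11b1 had 1.34, 1.01 and 2.30. The largest was 3.81 for the synaptotagmin gene Syt12, and the calcium channel gene Cacna1a had 1.53. No library of the 13 groups of 4 examined for the members and Park7 stood apart from its group by Dixon's test.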

How the results depend on the processing

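Leaving out the 3 libraries with muscle transcripts left warm KO with 1 library, assumed to vary like the others. It moved Cabp1 to -3.26 in KO against WT at 29 °C, -0.43 in 29 °C against room temperature in KO and -2.62 in the interaction, and Sema4g to -3.09, -1.47 and -3.18 (log2). Genes called fell to 4229 between genotypes at 29 °C, 4129 between temperatures in KO (31 of the related genes) and 13 between genotypes at room temperature. On plain column totals, Sema4g in WT between temperatures was 1.97. The count of 36 genes at room temperature was the least stable: 237 with DESeq2 (4 related), 20 on plain totals, 4 at an adjusted p under 0.01, 5 without KO replicates 2 and 4. With an adjusted p under 0.01 the interaction held 2304 genes, 19 related.

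Leaving out each library in turn gave 5 to 60 genes at room temperature, 5 without KO replicate 2 or 4, 7, 16 and 11 without WT replicates 2, 3 and 4, 60 and 58 without KO replicates 1 and 3, and 19 without warm KO replicate 2. Related genes there numbered 0 to 1. Sema4g at room temperature ran from -0.059 to 0.26, turning to -0.026 without WT replicate 2 and -0.059 without KO replicate 1. With 1 library left out, 393 values kept their direction and side of the threshold, 10 moved and 2 turned; under other settings 294 kept them and 22 moved. The cause of these shifts was not tested.

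Same-numbered replicates are not said to be paired. Their deviations correlated at -0.28 to 0.33. The replicate block gave 25 genes at room temperature, 6339 between genotypes at 29 °C and 4045 in the interaction, with -3.27, -1.84, -2.59 and -2.53 for Akr1cl, Cpne9, Cabp1 and Sema4g at 29 °C. Depth limits Akr1cl and Cpne9 at room temperature, where whole groups held at most 13 counts.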
